A study of Mus musculus with 6 samples.

Results

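The 8 genes described here make, keep and remove 5-methylcytosine in DNA: *Dnmt1*, *Uhrf1*, *Dnmt3a*, *Dnmt3b*, *Dnmt3l*, *Tet1*, *Tet2* and *Tet3*. They were chosen by name, for their known function, and are 8 of the 54532 genes of the deposited expression table. RNA was measured in 6 libraries of whole ovaries from C57BL/6 mice at 16.5 dpc. The 3 Ctrl libraries, called wild type in the sample labels, were compared with 3 cKO libraries, in which *Stra8-GFPCre* deletes exons of both floxed *Srsf1* alleles (*Srsf1* Fl/Fl). *Srsf1* encodes a splicing factor. Cre is driven in germ cells only, so the somatic cells of a cKO ovary keep *Srsf1*, and each library mixes RNA of both. In such bulk samples, fewer cells of a type and less RNA per cell cannot be told apart. The labels do not say whether a library is 1 animal or a pool, so the p-values measure the spread between these libraries only.

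Methyl groups on CpG sites are copied to the new DNA strand after replication, when UHRF1 binds hemimethylated CpG and brings the maintenance methyltransferase DNMT1 to it. DNMT3A and DNMT3B methylate unmethylated DNA, and DNMT3L, which has no catalytic activity, stimulates them. TET1, TET2 and TET3 oxidize 5-methylcytosine to 5-hydroxymethylcytosine and further products, which are lost by dilution or by base excision repair. Female germ cells lose most of their methylation as primordial germ cells. They enter meiosis with little of it and regain it only after birth, in growing oocytes, whereas somatic cells keep theirs.

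*Uhrf1* was lower in cKO ovaries than in Ctrl ovaries, and no other of these genes passed the same limit. *Uhrf1* fell from a mean of 36.4 FPKM to 26.0 FPKM, to 71.5% of its Ctrl level, and *Dnmt1*, its partner, had means of 27.8 and 25.2 FPKM. FPKM, the unit of the deposited values, divides the reads on a gene by its length and by the library size. Values were compared as log2(FPKM + 1) with limma, for the 17180 genes with a mean of at least 0.5 FPKM, so that each log2 fold change below understates the change of a gene with low values. The limit was an unadjusted p below 0.05, two-sided. Of the 7 members that could be tested, 1 passed it. Over all genes tested, 4.43% passed it, 1.75% lower and 2.68% higher in cKO. The balance of directions was not stable: 460 genes were higher and 301 lower, but 350 and 343 with voom, 243 and 382 without Ctrl 1, and 548 and 628 without Ctrl 3. After Benjamini-Hochberg adjustment over all genes in limma, 0 of the 7 members passed, as did 0% of all genes, the smallest adjusted p being 0.392. With voom on the recovered reads, the same counts for the members were 1 and 0, and 4.03% of all genes passed the unadjusted limit. *Dnmt3l* lay below the minimum level and was not tested in this fit. Of the 7 tested members, 2 lay above 0 and 5 below, with a median log2 fold change of -0.03, against -0.01 over all genes tested. Of all genes tested, 8222 lay above 0 and 8958 below.

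The libraries held between 14212164 and 16784241 reads on genes. *Srsf1* itself checked the labels: it lay between 63.1 and 80.2 FPKM in Ctrl and between 32.4 and 37.0 FPKM in cKO (log2 fold change -0.99, SE 0.13, adjusted p = 0.497 in limma). The libraries were uneven in the RNA of cell-type markers within a group. The summed FPKM of 10 germ-cell markers ranged from 126 to 452 in Ctrl and from 222 to 649 in cKO. The summed FPKM of 9 red blood cell markers ranged from 1721 in cKO 1 to 23318 in Ctrl 1, which was also the library with the lowest germ-cell sum. Ovarian somatic markers were more even: the sums of 10 pregranulosa markers lay between 643 and 766 FPKM in Ctrl and between 623 and 877 FPKM in cKO, and those of 8 stroma markers between 624 and 779 and between 609 and 687 FPKM. The germ-cell and pregranulosa markers that define an ovary were thus present in all 6 libraries, although one protocol field of the labels names retina.

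The promoters of *Uhrf1* and *Dnmt1*, the only members with a match to the motifs searched below, are shown first. Sequences are from RefSeq on GRCm38.p6, which lists 15 start sites for the 8 members, each with a window of 250 bases before and 50 after the start. Capitals mark TTTCGCGC or its reverse complement, a form of the motif bound by E2F factors, which drive genes of DNA replication. The first line is the 250 bases before the second start site of *Uhrf1*, chr17:56304063-56304312 on the plus strand, inside the annotated gene and in none of its annotated exons. The second line is 30 bases of *Dnmt1*, chr9:20952824-20952853 on the minus strand, where the match is on the opposite strand to the gene, 219 bases before the start and inside an exon of another annotated transcript.
Uhrf1: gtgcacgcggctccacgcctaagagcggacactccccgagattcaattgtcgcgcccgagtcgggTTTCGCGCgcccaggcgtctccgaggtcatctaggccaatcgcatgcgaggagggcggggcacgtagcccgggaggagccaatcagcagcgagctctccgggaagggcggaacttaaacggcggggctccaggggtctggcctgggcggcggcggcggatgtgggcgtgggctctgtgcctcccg
Dnmt1: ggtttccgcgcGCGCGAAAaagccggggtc

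TTTCGCGC, TTTGGCGC, TTTCCCGC and TTTGCCGC were searched on both strands, and matches may overlap. They were chosen after these windows had been read, so the members' share with a match is a description and not a test. Any of the 4 was found in 744 of 32851 mouse promoter windows (2.26%), and TTTCGCGC alone in 106 (0.323%). Counted by gene, 704 of 27025 genes had a match in some window (2.6%). Of the 8 members, only *Uhrf1* and *Dnmt1* had one, and 2 of the members' 15 windows held one. The match in *Uhrf1* lies 185 bases before the start, and *Dnmt1* had 2 matches, of which 1 is shown. Of 20 matched genes of DNA replication and S phase, such as the *Mcm* helicase genes, 8 had a match (40.0%). A match is only a run of letters, and its use in the ovary was not tested. The members' windows also differed in CpG sites. The median window of all mouse promoters held 7 CpG, the median of the members' 15 windows held 18 and that of the 21 S phase windows 25. The windows of *Uhrf1* and *Dnmt1* with a match held 33 each. Each of the 4 motifs itself holds a CpG, and the part of CpG content in the shares with a match was not tested. The *Tet2* window had 57 CpG, more than 99.8% of all windows had, and the 3 *Dnmt3a* windows had 46, 47 and 18. The 3 windows of *Dnmt3l* were poor in CpG, with 6, 4 and 3.

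*Uhrf1* (ENSMUSG00000001228, chr17:56303321-56323486, plus strand) encodes the reader of hemimethylated DNA. Its values were 38.5, 40.3 and 30.5 FPKM in Ctrl 1, 2 and 3 and 26.8, 23.8 and 27.6 FPKM in cKO 1, 2 and 3. All 3 cKO libraries lay below all 3 Ctrl libraries, and Ctrl 3 came nearest to them, 2.87 FPKM above the highest cKO library. The means were 36.4 ± 5.25 and 26.0 ± 2.03 FPKM (SD, n = 3 each), a difference larger than the spread within either group. The log2 fold change was -0.46 (SE 0.14, 95% interval -0.80 to -0.12), with an unadjusted limma p of 0.0151 and an adjusted p of 0.978. By p, *Uhrf1* ranked 184 among all genes tested. An exact permutation test, two-sided, gave p = 0.1, the smallest value that 3 against 3 libraries allow. The log2 fold change was -0.42 without Ctrl 1 and -0.39 without Ctrl 2, and in neither case did it pass the unadjusted limit, so that the call rested on these 2 libraries. Counting error was small beside this spread, since each library held between 1670 and 2782 reads on *Uhrf1*.

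*Dnmt1* (ENSMUSG00000004099, chr9:20907209-20959888, minus strand) encodes the enzyme that UHRF1 brings to replicated DNA. Its values were 30.5, 30.5 and 22.4 FPKM in Ctrl and 27.7, 22.8 and 25.0 FPKM in cKO. Ctrl 3 was the lowest of all 6 libraries, below every cKO library, so the groups overlapped. The means were 27.8 ± 4.65 and 25.2 ± 2.46 FPKM (SD, n = 3 each). The log2 fold change of -0.13 (SE 0.16, 95% interval -0.50 to 0.25) did not pass the test (limma adjusted p = 0.982), and its interval still holds a fall as large as that of *Uhrf1*.

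**Figure D1:**
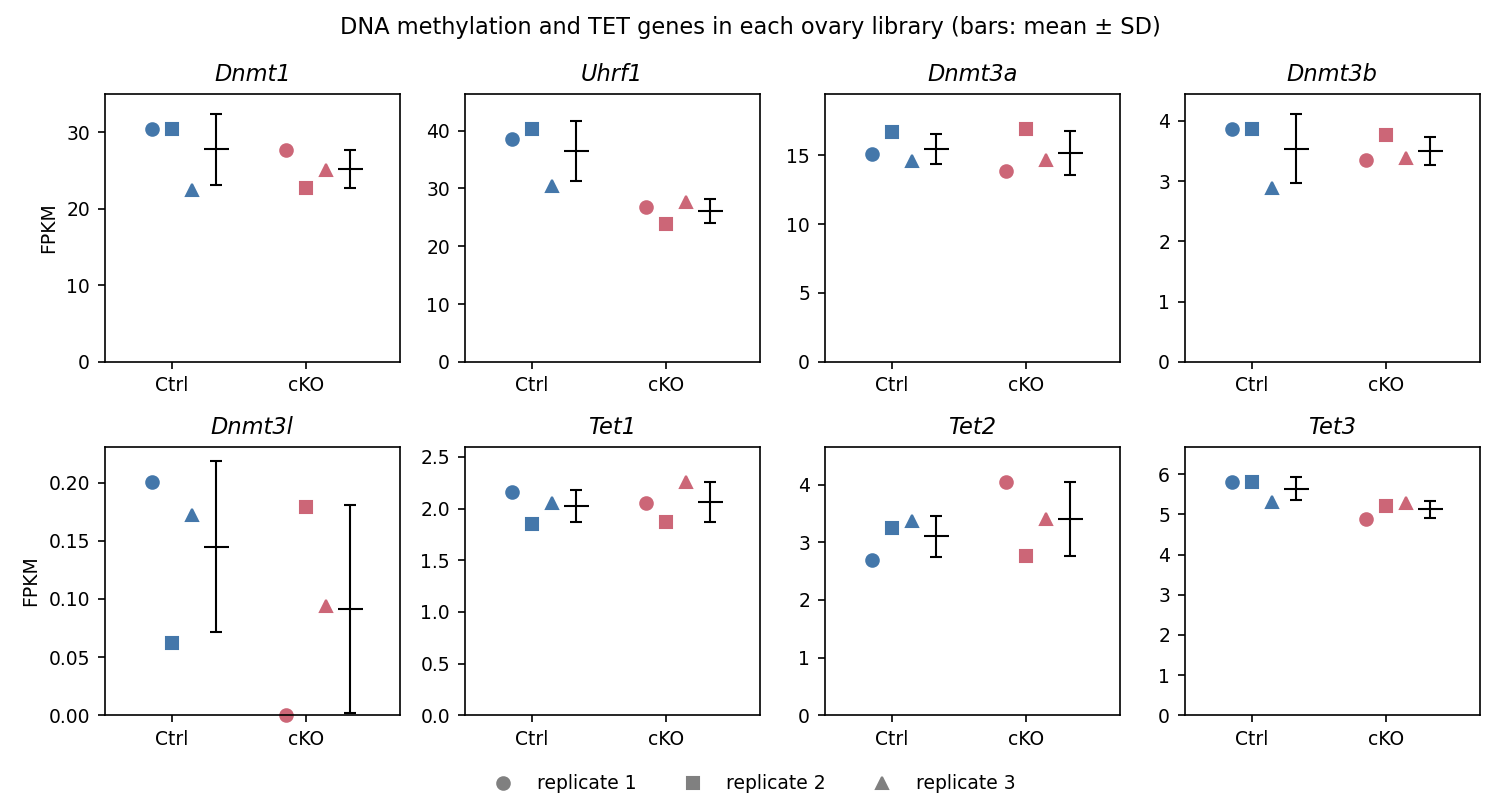
FPKM of each of the 8 genes in 3 Ctrl (blue) and 3 cKO (red) libraries, with the mean ± SD of each group beside them and the marker shape giving the replicate number. The 3 cKO values of *Uhrf1*, between 23.8 and 27.6 FPKM, lie below the lowest Ctrl value of 30.5 FPKM, while the groups of *Dnmt1*, *Dnmt3a*, *Dnmt3b*, *Dnmt3l*, *Tet1* and *Tet2* overlap and those of *Tet3* nearly touch.

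The ratio of *Uhrf1* to *Dnmt1* within a library does not depend on the library size. On the log2 scale it was 0.33, 0.39 and 0.43 in Ctrl and -0.05, 0.06 and 0.14 in cKO. *Uhrf1* had the higher FPKM in all 3 Ctrl libraries, whereas both had about the same FPKM in cKO, and the groups did not overlap. The mean difference was -0.33, with an exact permutation p of 0.1 and an adjusted p of 0.2 over the 4 ratios tested. Since 0.1 is the smallest p this design allows, none of the 4 ratios could have passed 0.05. Leaving out any 1 library kept the difference between -0.38 and -0.28.

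*Uhrf1* is most abundant in dividing cells, so its level was also set against 23 genes of DNA replication and S phase. None of the 23 passed the unadjusted limit in limma, 3 did with voom, and 19 lay below 0, with a median log2 fold change of -0.24. Over all genes tested, 4.03% passed with voom, and 8958 of 17180 lay below 0 in limma. The largest difference in the list was that of *Rrm2*, a subunit of ribonucleotide reductase, with a log2 fold change of -0.76 (SE 0.46, adjusted p = 0.978 in limma). The summed FPKM of the list was 720, 606 and 443 in Ctrl and 522, 450 and 498 in cKO, so the groups overlapped. As with *Uhrf1*, the highest sums were those of Ctrl 1 and Ctrl 2. Without Ctrl 3, 10 of the 23 genes passed the limit, and without cKO 2, 2 did. Over all genes tested, these omissions raised the share past the limit from 4.43% to 6.85% and 14.5%, which is the background for every count given without Ctrl 3 or without cKO 2. The log2 level of *Uhrf1* over the mean of the list was 0.80, 1.05 and 1.02 in Ctrl and 0.69, 0.72 and 0.76 in cKO. *Uhrf1* lay lower relative to the mean of these genes in every cKO library than in any Ctrl library. The mean difference was -0.24, as large as the median log2 fold change of the list itself (exact permutation p = 0.1, adjusted p = 0.2 over the 4 ratios). Within the list, *Rrm2*, *Ccne1* and *Cdc6* had lower log2 fold changes than *Uhrf1*, at -0.76, -0.59 and -0.54 against -0.46. *Ccne1* and *Cdc6* are named after their values were seen. How many other genes lie apart between the groups on such a ratio was not counted. Whether the number of dividing cells differed between the groups was not tested.

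**Figure D2:**
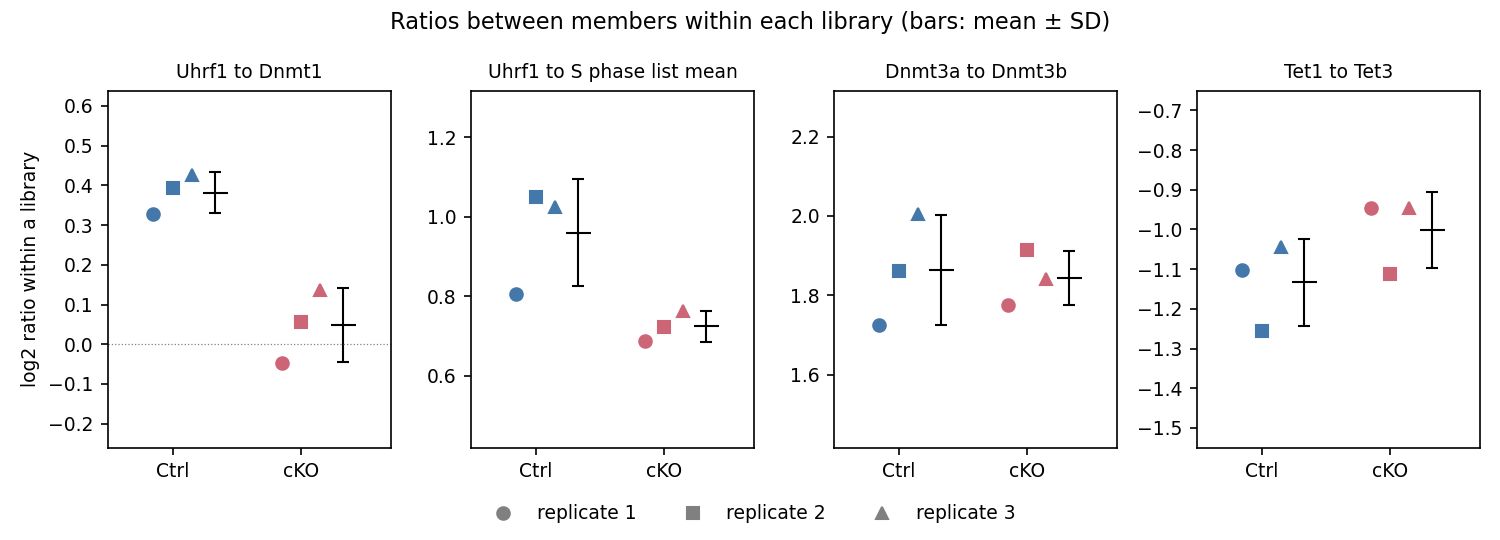
Log2 ratios of FPKM + 1 within each library for *Uhrf1* to *Dnmt1*, *Uhrf1* to the mean of 23 S phase genes, *Dnmt3a* to *Dnmt3b* and *Tet1* to *Tet3*, in Ctrl (blue) and cKO (red), with the mean ± SD beside them. All panels span the same range in log2 units, and the groups lie apart in the first and the second panel only, by -0.33 and -0.24 on average.

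The de novo enzymes were at nearly equal levels in both groups. *Dnmt3a* (ENSMUSG00000020661, chr12:3806007-3914443, plus strand), the more abundant of them, was at 15.1, 16.7 and 14.6 FPKM in Ctrl and 13.9, 16.9 and 14.7 FPKM in cKO. The lowest and the highest value were both in cKO. Its log2 fold change was -0.03 (SE 0.12, 95% interval -0.32 to 0.27, limma adjusted p = 0.993). *Dnmt3a* shares 133 exon bases with an antisense gene on the other strand, and with the strand setting of the counting not stated, reads of the pair may be mixed.

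*Dnmt3b* (ENSMUSG00000027478, chr2:153649450-153687730, plus strand), known for methylating the early embryo and repeats at centromeres, was at 3.87, 3.87 and 2.88 FPKM in Ctrl and 3.34, 3.76 and 3.38 FPKM in cKO. All 3 cKO values lay within the range of the Ctrl values. Its log2 fold change was -0.01 (SE 0.14, 95% interval -0.35 to 0.33, limma adjusted p = 0.999). *Dnmt3a* made up between 78.8% and 82.7% of the summed FPKM of the 3 *Dnmt3* genes in each library. This share depends on the gene lengths used, 16642 bases for *Dnmt3a* and 5106 for *Dnmt3b*. The log2 ratio of *Dnmt3a* to *Dnmt3b* differed by -0.02 between the groups (exact permutation p = 0.9).

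*Dnmt3l* (ENSMUSG00000000730, chr10:78041947-78063622, plus strand), the cofactor needed for methylation of imprinted genes in growing oocytes, was close to silent. It had 9, 3 and 9 reads in Ctrl and 0, 9 and 4 reads in cKO, and its highest level was 0.201 FPKM. The 0 in cKO 1 allows up to 3 reads, or 0.0649 FPKM. Scaled to library size, cKO held 0.638 times the reads of Ctrl, with a 95% exact interval from 0.294 to 1.34 that covers counting error only. No difference was detectable at this depth. *Dnmt3l* also shares 67 exon bases with *Aire* on the other strand.

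*Dnmt3c*, a rodent gene next to *Dnmt3b* that methylates young retrotransposons in the male germline, is named here because of its values. It had 10, 18 and 14 reads in Ctrl and 4, 2 and 5 reads in cKO, so the groups did not overlap. The ratio was 0.270, with a 95% exact interval from 0.125 to 0.534 that again covers counting error only. It lay below the minimum level of the limma fit. With no minimum its log2 fold change was -0.32 (SE 0.08, limma unadjusted p = 0.00734, adjusted p = 0.882), where 3.94% of all genes passed the unadjusted limit. Since it arose as a copy of *Dnmt3b*, its few reads could be split between both genes.

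Of the genes for oxidizing enzymes, none passed the test. *Tet3* (ENSMUSG00000034832, chr6:83362373-83459084, minus strand), known for its role in the oocyte and the zygote, was at 5.80, 5.81 and 5.30 FPKM in Ctrl and 4.89, 5.21 and 5.29 FPKM in cKO. Every cKO library lay below every Ctrl library, but Ctrl 3 and cKO 3 were nearly equal. The means were 5.64 ± 0.288 and 5.13 ± 0.211 FPKM (SD, n = 3 each), and the log2 fold change was -0.11 (SE 0.11, 95% interval -0.38 to 0.15, limma adjusted p = 0.978). The groups of *Uhrf1* and *Tet3*, 2 of the 7 tested members, did not overlap. This held for 8.68% of all genes tested, and for 4.10% with cKO below Ctrl.

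*Tet2* (ENSMUSG00000040943, chr3:133463679-133545139, minus strand), best known from blood stem cells, was at 2.69, 3.24 and 3.37 FPKM in Ctrl and 4.05, 2.76 and 3.41 FPKM in cKO. It varied most of the 3 in cKO, where cKO 1 was the highest and cKO 2 below 2 of the Ctrl libraries. Its log2 fold change was 0.10 (SE 0.16, 95% interval -0.28 to 0.47, limma adjusted p = 0.986). It shares 43 exon bases with an antisense gene.

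*Tet1* (ENSMUSG00000047146, chr10:62804570-62908996, minus strand) is needed in mouse primordial germ cells for the activation of meiotic genes. It was the least abundant of the 3, at 2.17, 1.85 and 2.06 FPKM in Ctrl and 2.06, 1.87 and 2.26 FPKM in cKO. The groups overlapped nearly in full, with a log2 fold change of 0.02 (SE 0.13, 95% interval -0.30 to 0.33, limma adjusted p = 0.995). *Tet3* held between 44.4% and 54.4% of the summed FPKM of the 3 *Tet* genes, *Tet2* between 25.3% and 36.8%, and *Tet1* between 17.0% and 20.6%. The log2 ratio of *Tet1* to *Tet3* differed by 0.13 (exact permutation p = 0.3).

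**Figure D3:**
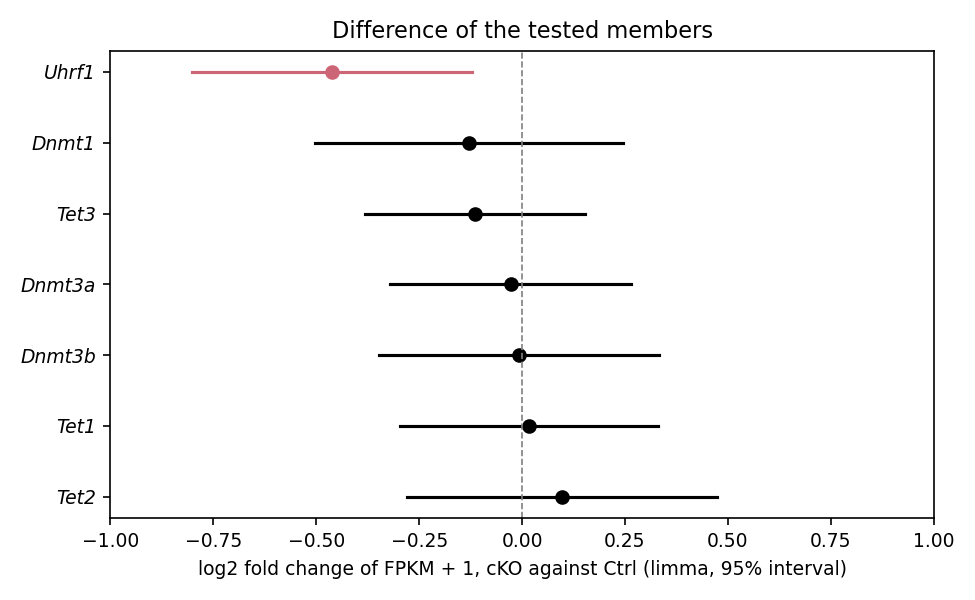
Log2 fold change of FPKM + 1 in cKO against Ctrl for the 7 tested members (points), with 95% intervals from limma (lines) and the gene past an unadjusted p of 0.05 in red. Only the interval of *Uhrf1*, from -0.80 to -0.12, leaves out 0, while those of the other 6 genes lie between -0.50 and 0.47.

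Over all 6 libraries, the levels in FPKM fell in the order *Uhrf1*, *Dnmt1*, *Dnmt3a*, *Tet3*, *Dnmt3b*, *Tet2*, *Tet1* and *Dnmt3l*. This order depends on the gene length that divides the reads, 16642 bases for *Dnmt3a*, 7377 for *Dnmt1* and 4259 for *Uhrf1*. In reads *Dnmt3a* stood above both, with 12503 over the Ctrl libraries against 9907 for *Dnmt1* and 7510 for *Uhrf1*. Medians ran from 29.0 FPKM for *Uhrf1* to 2.06 FPKM for *Tet1* and 0.133 FPKM for *Dnmt3l*. Of the neighbours in this order, *Uhrf1* and *Dnmt1* overlapped, *Uhrf1* being the higher in 5 of 6 libraries, and so did *Dnmt3b* and *Tet2*, with *Dnmt3b* the higher in 3 of 6. The ranges of all other neighbours lay apart. The tested members lay between the 26.6th and the 90.3rd percentile of all genes tested. Libraries of a group differed with a coefficient of variation between 4.11% and 19.0%, while counting error alone came to at most 6.39%, so the spread between libraries set the precision for most members. The largest fall that the intervals of the 6 members other than *Uhrf1* still hold is -0.50 and the largest rise 0.47, so that moderate changes in either direction would have gone unseen.

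The genes that work with these enzymes were described from lists written from general knowledge, which share some genes with each other. Of 8 maintenance partners, none passed the limit in limma or with voom, 4 lay above and 4 below 0, and the median log2 fold change was 0.01. *Hells*, a chromatin remodeller needed for methylation of repeats, had the largest difference, 0.46 (SE 0.38, adjusted p = 0.978). Of 9 readers of methylated DNA, none passed in either fit, the median was -0.07, and the largest difference was that of *Mbd2*, a methyl-CpG binding protein, at -0.38 (SE 0.25, adjusted p = 0.978). Without Ctrl 3, 2 partners and 1 reader passed, and without cKO 2, 2 of each did.

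Of 19 genes of TET cofactors and base excision repair, none passed in limma or with voom, 10 lay above and 9 below 0, and the median was 0.01. *Gadd45a*, a stress gene linked to active demethylation, had the largest difference, -0.68 (SE 0.48, adjusted p = 0.978). Of 9 genes of the methyl donor cycle, which makes S-adenosylmethionine, none passed in either fit, and the median was -0.09. *Shmt2*, a mitochondrial enzyme of serine and folate metabolism, had the largest difference there, -0.45 (SE 0.32, adjusted p = 0.978). Both lists gained calls when 1 library was left out: without Ctrl 3, 1 gene of each, without cKO 1, 1 gene of the first, and without cKO 2, 1 gene of the first and 2 of the second. Over all genes tested, 6.85% passed without Ctrl 3, 2.57% without cKO 1 and 14.5% without cKO 2.

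Of 10 tested partners and guides of de novo methylation, 1 passed, and it was higher in cKO. *Dppa3*, which shields DNA from methylation in the egg and early embryo and keeps UHRF1 out of the oocyte nucleus, was at 0.897, 0.138 and 1.54 FPKM in Ctrl and 2.68, 1.67 and 8.05 FPKM in cKO. All cKO libraries lay above all Ctrl libraries, with 25 to 102 reads against 2 to 24. The log2 fold change was 1.34 (SE 0.50, limma unadjusted p = 0.0312, adjusted p = 0.978). The size depended on the scale, with 2.23 at a pseudocount of 0.1 and 2.32 with voom. The call was lost without Ctrl 1 (1.39), without Ctrl 2 (1.02) and without cKO 3 (0.83). The list's median was 0.12, and without cKO 2, 6 of its 10 genes passed, against 14.5% of all genes. Among the 6 libraries, *Dppa3* was highest in cKO 3, the library with the highest germ-cell sum, and the part of germ-cell content in its values was not tested.

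DNA methylation is known to keep a set of germline genes silent in somatic cells, and these genes become active as germ cells lose it. Of 15 such genes, 1 passed the limit, 13 lay above 0 and the median log2 fold change was 0.47. Over all genes tested, 8222 of 17180 lay above 0. *Dazl*, an RNA-binding protein of germ cells, was at 23.0, 39.1 and 80.0 FPKM in Ctrl and 169, 56.8 and 219 FPKM in cKO, so the groups overlapped through Ctrl 3 and cKO 2. Its log2 fold change was 1.60 (SE 0.61, limma unadjusted p = 0.0345, adjusted p = 0.978), and leaving out Ctrl 1, Ctrl 2, cKO 1 or cKO 3 put it past the limit no longer, at values between 1.18 and 1.55. Without Ctrl 3, 4 of the 15 genes passed, against 6.85% of all genes, and without cKO 2, 5 did, against 14.5%. The list moved with the germ-cell markers, most of which are also in it, so this likeness was partly fixed in advance. Its mean log2 level, relative to its own mean over all 6, ran -1.20, -0.18 and 0.58 over the Ctrl libraries and 0.64, -0.62 and 0.78 over the cKO libraries, and that of the markers ran -0.93, -0.12 and 0.49, followed by 0.35, -0.40 and 0.59. Over the same libraries *Uhrf1* ran 0.32, 0.38 and -0.01 and then -0.19, -0.36 and -0.15. *Uhrf1* was low in cKO 2, where the germ-cell markers were low, as well as in cKO 1 and 3, where they were high. Within Ctrl it was lowest (-0.01) in Ctrl 3, where the markers were highest (0.49). It was not highest in Ctrl 1 (0.32), where the markers were lowest (-0.93), but in Ctrl 2 (0.38). The part of cell make-up in the *Uhrf1* difference was not tested.

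**Figure D4:**
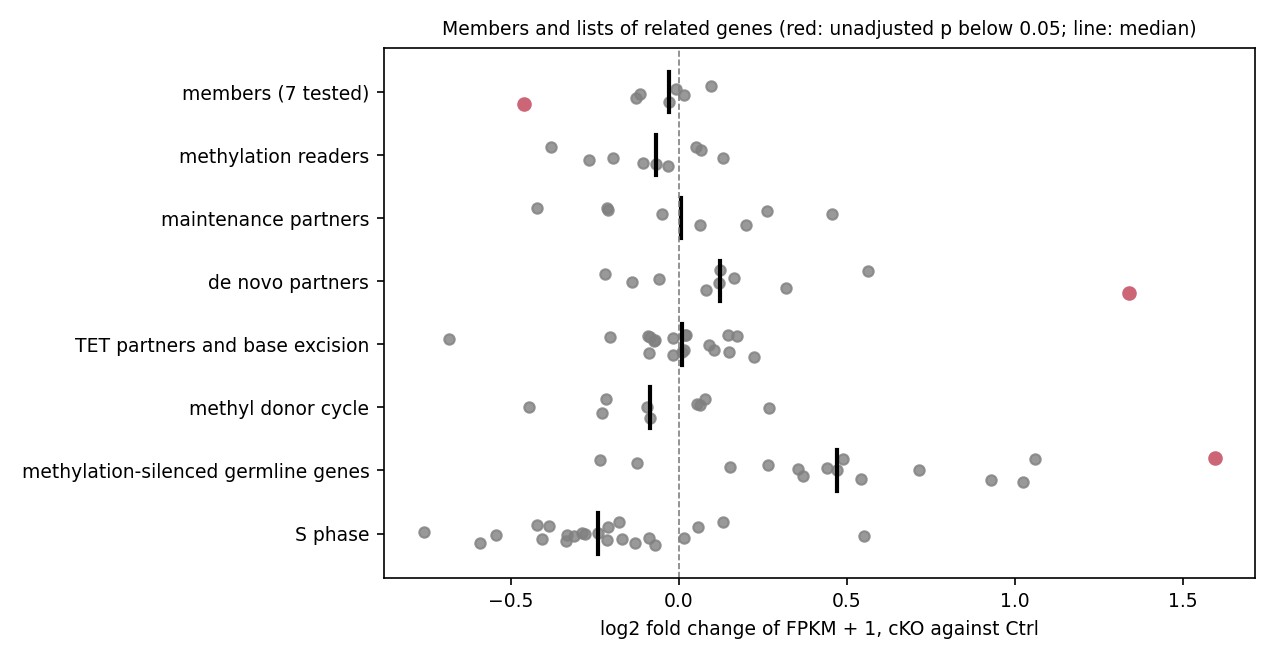
Log2 fold change of FPKM + 1 in cKO against Ctrl for each tested gene of the members and of 7 lists of related genes (points, with vertical scatter only to part them), with genes past an unadjusted p of 0.05 in red and the median of each list as a black line. The lists of germline genes and of S phase genes have medians of 0.47 and -0.24, and the other lists have medians between -0.09 and 0.12.

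Markers of the remaining cell types were also summed. The summed FPKM of 5 endothelial markers lay between 52.9 and 65.9 in Ctrl and between 52.7 and 62.1 in cKO, and that of 5 macrophage markers between 16.6 and 21.1 and between 13.3 and 16.8. The sum of 5 markers of the mesonephros, the tissue attached to the fetal ovary, lay between 3.89 and 7.20 FPKM in Ctrl and between 2.96 and 4.04 FPKM in cKO. All 3 tested markers lay below 0, and 1 of them, *Gata3*, was lower in cKO past the limit (log2 fold change -0.58, SE 0.16, limma adjusted p = 0.978). *Pax2*, below the minimum level and not tested, went the other way. It lay between 0.0986 and 0.116 FPKM in Ctrl and between 0.169 and 0.220 FPKM in cKO. Of the 9 red blood cell markers, 7 lay below 0 and 1 passed the limit, *Hbb-y*, an embryonic globin, which was higher in cKO (log2 fold change 2.10, SE 0.53, limma adjusted p = 0.978). *Gata3*, *Pax2* and *Hbb-y* are named after their values were seen.

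The genes whose levels ran most like those of each member over the 6 libraries are given as a description, over few points that share their libraries, chosen as the best of all genes tested. For *Uhrf1* they were *Ydjc*, *Engase* and *Gm26765*, with Pearson's r between 0.975 and 0.992 of log2(FPKM + 1). For *Dnmt1* they were *Gm17023*, *Sphk1* and *Fam160b1* (r between 0.979 and 0.994). For *Dnmt3a* they were *Tmem63b*, *Lpar2* and *Amigo1* (0.990 to 0.999), and for *Dnmt3b* *Gm23257*, *Man2b1* and *Gimap6* (0.979 to 0.992). For the oxidizing enzymes they were *Fam92a* and *Gm48865* with *Tet1* (0.994 and 0.988), *Zfp36l1-ps*, *Snrnp200* and *Gm19144* with *Tet2* (0.994 to 0.997), and *Ankrd23*, *4930581F22Rik* and *Socs2* with *Tet3* (0.986 to 0.998). Among the members themselves, r over the 6 libraries was highest between *Uhrf1* and *Tet3* (0.876) and between *Uhrf1* and *Dnmt1* (0.759), and lowest between *Dnmt3a* and *Tet1* (-0.748).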

How the data were processed

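RNA of whole ovaries was sequenced after poly-T selection in 3 Ctrl and 3 cKO libraries at 16.5 dpc, grouped by the sample labels. The authors mapped read pairs with HISAT2 2.0.5 against GRCm38 (mm10) and summarised them by gene with featureCounts. What they deposited are FPKM values, that is, reads scaled by gene length and by library size. The sources used here give neither the annotation release nor the strand setting. FPKM times gene length gave whole reads for every value, with a tolerance of 0.05 read, and so the depth and the reads used for voom.

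A mean FPKM of at least 0.5 was required, which 17180 genes reached, and their log2(FPKM + 1) was compared with limma 3.58.1 (intensity trend, two-sided, Benjamini-Hochberg adjustment) in R 4.3.3, with group as the only term. The fit was tested on simulated reads with the same spread setting for every gene and no differences in cell make-up. That test therefore does not cover the uneven cell-type markers of these libraries. The authors had used DESeq2 on counts. Ratios within a library and single members were compared with exact permutation tests, and read ratios with exact intervals. Tried in turn were pseudocounts of 0.1 and 0.5, a minimum mean of 1, no minimum, median-ratio scaling, quantile normalization, voom, no trend, the replicate number as a block and each library left out.

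The members, the lists and the rule for naming genes were chosen with earlier results of these data known. Named genes were all members, *Srsf1*, from each list the genes past the unadjusted limit or else the gene with the largest difference, and the 3 genes most like each member. A value of 1 gene under this rule is not reported here. Motif matches were counted in RefSeq promoter windows of GRCm38.p6, and exons were taken from GENCODE M21, where all 8 members had the start and end of the deposited table. Figures were drawn with Python 3.11.15 and matplotlib 3.10.9.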

Additional observations from a re-analysis of the deposited data

How the results depend on the processing

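Of the tested members, between 0 and 1 passed the unadjusted limit when 1 library was left out (0 without Ctrl 1 and without Ctrl 2) and 1 under every other alternative run, and none passed after adjustment under any of the 15 alternatives. *Uhrf1* stayed below 0 in all 15, between -0.58 and -0.39 on the log2 scale. Over all genes tested, 761 passed the unadjusted limit, 1331 with no FPKM minimum, under which more genes were tested, and between 364 (without Ctrl 2) and 2493 (without cKO 2) with 1 library left out. Without Ctrl 1, 4 genes passed after adjustment.

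Several members close to 0 changed sign, none past the limit, and the cause was not tested. With 1 library left out, *Dnmt3a* ranged from -0.105 to 0.029 (above 0 without Ctrl 2 or cKO 1), *Dnmt3b* from -0.117 to 0.047 (above 0 without Ctrl 1, Ctrl 2, cKO 1 or cKO 3), *Tet1* from -0.029 to 0.063 (below 0 without Ctrl 2 or cKO 3) and *Tet2* from -0.0077 to 0.206 (below 0 without cKO 1). *Dnmt3b* was at 0.0083 with quantile normalization and *Tet1* at -0.00049 with voom. *Dnmt1* and *Tet3* stayed below 0 in all 15.

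Whether the replicate numbers pair the libraries is not stated. Deviations of same-numbered libraries from their group means correlated at -0.389, -0.030 and 0.117, and not every library correlated best with its own number. With 3 libraries per group that also differ in cell-type markers, these values cannot decide whether libraries are paired. With the replicate number as a block, 1 member passed the unadjusted limit, *Uhrf1* with an unadjusted limma p of 0.0404, and 681 of all genes did. Of the de novo partners, 2 passed with median-ratio scaling and 3 with no FPKM minimum, against 1 in the main fit. Over all genes, 4.49% passed with median-ratio scaling and 3.94% with no minimum. *Dnmt3c*, described above, is 1 of those 3. The cKO minus Ctrl differences of both *Uhrf1* ratios stayed below 0 under all 7 alternatives run for each. With no minimum, *Dnmt3l* was at -0.07 (limma adjusted p = 0.889). Depth limits what can be said of *Dnmt3l* and *Dnmt3c*, with at most 18 reads in a library.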
